A study of Mus musculus with 10 samples.

Results

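The cardiac and skeletal muscle genes described here are 10 named genes, read by symbol among the 49671 genes counted in sorted mouse neural crest cells. They include the troponin, actin and myosin genes Tnnt2, Tnni1, Actc1, Myl4, Myl7 and Myh7, called the cardiac members below. The others are the skeletal muscle regulators Myf5, Myod1 and Myog, and Mrln, the gene of a muscle micropeptide. All 10 were found once each. The cells came from embryos at embryonic day 10.5 on a mixed 129/Sv-C57BL/6 background, with 1 library of polyadenylated RNA per embryo. In the 5 p53_activated embryos (Wnt1Cre;Trp53LSL-25,26/+;R26mTmG/+) Cre removed a stop cassette from 1 Trp53 allele and so released a stabilised p53 protein beside the normal allele. The 5 control embryos were littermates with normal Trp53 (Wnt1Cre;Trp53+/+;R26mTmG/+). Both groups carried the Cre driver and the R26mTmG reporter, which turns on membrane GFP in cells with Cre activity and in their descendants. Wnt1-Cre acts in the dorsal neural tube and the premigratory neural crest, so the sorted GFP-positive cells can include neural tube cells. Which embryos shared a litter is not given in the sources used here.

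Heart and skeletal muscle arise from mesoderm, while cardiac neural crest adds smooth muscle and connective tissue to the outflow vessels. In the skeletal lineage Myf5 and MyoD (Myod1) commit cells to muscle and myogenin (Myog) starts their terminal differentiation, after which sarcomere genes are switched on. In the sarcomere, myosin pulls on actin under the control of the troponin complex, which responds to calcium. Myoregulin, the product of Mrln, is a micropeptide that restrains SERCA, the pump that returns calcium to its store in skeletal muscle. Several genes first known from the heart, among them Tnnt2, Actc1 and Myl4, are also used in embryonic skeletal muscle. Tnni1, in turn, is the slow skeletal troponin I, which the embryonic heart also uses.

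Library totals ran from 14644162 to 28379562 counts in p53_activated and from 12368058 to 23514828 in control libraries. CPM below are counts divided by library size, on the usual CPM scale, after scaling by the trimmed mean of M-values (TMM), and 3 counts correspond to 0.0988 to 0.236 CPM. As a check of the labels, Cdkn1a, the p53 target that encodes p21, averaged 105 ± 11.9 CPM in p53_activated and 7.93 ± 1.59 CPM in control libraries (SD, n = 5 each). Sox10, a defining gene of neural crest and its glia, was present at 13.5 to 24.7 CPM in p53_activated and 16.8 to 26.0 CPM in control libraries. Libraries numbered 4 and 5 stood apart in both groups by markers of other cell types: summed over 8 endothelial genes they held 29.3 and 23.2 CPM in p53_activated and 34.5 and 26.0 CPM in control embryos. The other libraries held 10.9 to 13.2 CPM in p53_activated and 8.18 to 13.8 CPM in control embryos. Control replicates 1 and 2 also stood apart, with ratios of the embryonic globin Hbb-y to Hbb-bh1 of 4.97 and 2.69, against 1.83 to 2.08 in p53_activated libraries and 1.59 to 1.95 in the remaining control libraries. Results are therefore also given without these libraries where that changed them.

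Of the 10 members, Mrln and Tnni1 fell in p53_activated embryos and none rose, while 7 did not pass the test and Myf5 had too few counts to be tested. Mrln was 3.31-fold and Tnni1 1.89-fold lower. The test was the quasi-likelihood F-test of edgeR over 14528 genes, with Benjamini-Hochberg adjustment and a threshold of 0.05. Lower calls made up 2.74% of all tested genes, higher calls 4.49%, and calls in either direction 7.23%. Of 1050 calls 398 were lower and 652 higher, against 538 lower and 576 higher with upper quartile scaling. The median log2 fold change (p53_activated over control) was -0.81 over the 9 tested members and -0.01 over all tested genes. These are bulk measurements, so fewer cells of a type and less RNA per cell cannot be told apart.

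**Figure D1:**
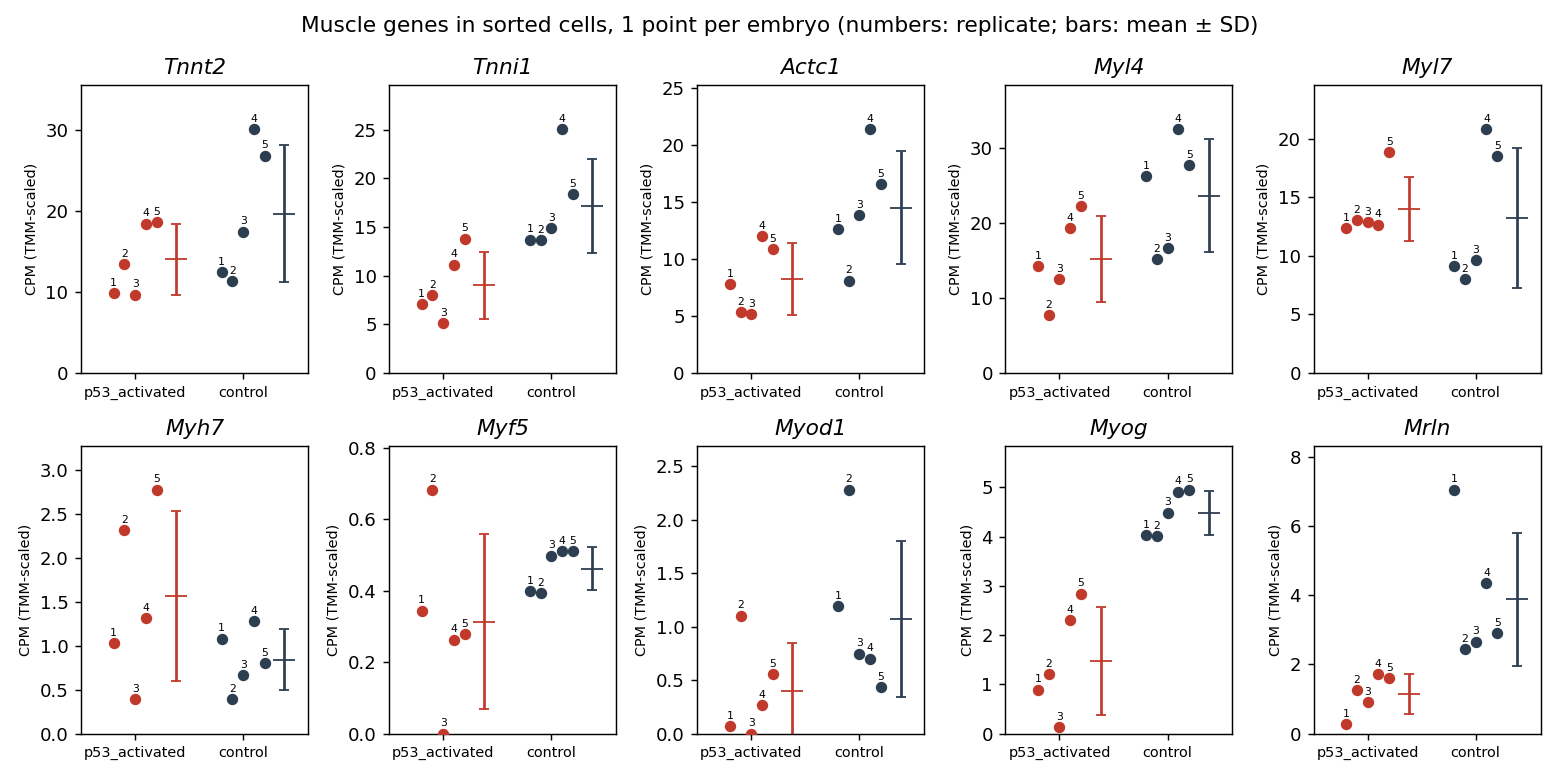
TMM-scaled CPM (vertical axis, one scale per gene) of the 10 muscle genes in p53_activated (red, left) and control (dark, right) libraries; each point is 1 embryo with its replicate number, and the bars give mean ± SD over 5 embryos. Every p53_activated point lies below every control point for Myog and Mrln, as for 3.52% of all tested genes, and the groups overlap for the other 8 genes.

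Among the thin filament genes, Tnni1, the slow skeletal troponin I that the embryonic heart also uses, measured 7.09, 8.04, 5.11, 11.1 and 13.8 CPM in p53_activated replicates 1 to 5. In control replicates 1 to 5 it measured 13.7, 13.6, 14.9, 25.1 and 18.4 CPM. In 4 of 5 p53_activated embryos it lay below every control embryo, and replicate 5 reached into the control range. The log2 fold change was -0.92 ± 0.25 (SE; edgeR adjusted p = 0.039). The call was lost without control replicate 2 (0.0549), 3 (0.0505), 4 (0.0969) or 5 (0.073), or without p53_activated replicate 1 (0.0784), 2 (0.0863) or 3 (0.0831), as adjusted p.

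Actc1, the cardiac alpha actin, measured 7.78, 5.36, 5.17, 12.1 and 10.9 CPM in p53_activated embryos, against 12.6, 8.10, 13.9, 21.4 and 16.6 CPM in control embryos. The groups overlapped, with 3 of 5 p53_activated embryos below all controls. Its log2 fold change of -0.81 ± 0.28 did not pass (edgeR adjusted p = 0.0958), though it did without control replicates 1 and 2 (-1.06, adjusted p = 0.0461). Tnnt2, the cardiac troponin T, measured 9.91, 13.5, 9.69, 18.5 and 18.7 CPM in p53_activated and 12.5, 11.4, 17.5, 30.2 and 26.9 CPM in control embryos. The ranges of Tnnt2 overlapped, and the log2 fold change of -0.48 ± 0.29 did not pass (adjusted p = 0.367).

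The myosin genes did not pass, and their log2 fold changes differed in sign. Myl4, the atrial essential light chain, averaged 15.2 ± 5.69 CPM in p53_activated and 23.6 ± 7.47 CPM in control embryos (SD, n = 5 each). Its log2 fold change was -0.64 ± 0.28 (edgeR adjusted p = 0.198). Myl7, the atrial regulatory light chain, averaged 14.0 ± 2.74 CPM in p53_activated and 13.2 ± 5.97 CPM in control embryos. Its log2 fold change of 0.08 ± 0.26 (adjusted p = 0.894) had no stable sign, since it was -0.22 without control replicates 1 and 2. For Myl7, 4 p53_activated embryos lay between 12.4 and 13.1 CPM and replicate 5 at 18.9 CPM, while the control embryos spread from 8.02 to 20.9 CPM. Myh7, the slow and ventricular myosin heavy chain, was scarce at 1.57 ± 0.967 CPM in p53_activated and 0.843 ± 0.346 CPM in control embryos. Its log2 fold change of 0.88 ± 0.51 did not pass (adjusted p = 0.333). Myh7 is a near copy of its neighbour Myh6 and shares 13.34% of its exon length with antisense genes, and Actc1 resembles Acta1 closely, so reads of these genes could be split or dropped by the counting.

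The skeletal muscle regulators were scarce in both groups. Myog, the gene of myogenin, measured 0.895, 1.21, 0.131, 2.30 and 2.84 CPM in p53_activated embryos, against 4.04, 4.01, 4.49, 4.91 and 4.95 CPM in control embryos. Every p53_activated embryo lay below every control embryo, as it did for 3.52% of all tested genes (8.07% did not overlap in either direction). The control embryos kept within a narrow band, while p53_activated replicate 3 held 2 counts and replicate 4 held 70. The log2 fold change of Myog was -1.58 ± 0.47 and missed the threshold (edgeR adjusted p = 0.0546). Over the alternatives its adjusted p ran from 0.00906 with DESeq2 to 0.121 without control replicates 1 and 2, and it passed in 10 of 23. Among these were upper quartile scaling (0.0456, with 3.7% of all tested genes called lower), no filter beyond a count in any library (0.0336, with 1.44%) and limma-voom (0.032, with 2.23%).

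Myod1, the gene of MyoD, held 1, 21, 0, 8 and 8 counts in p53_activated replicates 1 to 5 and 21, 29, 18, 11 and 6 counts in control replicates 1 to 5. The groups overlapped, and the log2 fold change of -1.38 ± 0.75 did not pass (edgeR adjusted p = 0.293). It was -0.65 without control replicates 1 and 2 and -2.21 without p53_activated replicate 2, and passed in neither (adjusted p = 0.76 and 0.124). Myf5, which acts before it in many muscle precursors, held 5, 13, 0, 8 and 4 counts in p53_activated and 7, 5, 12, 8 and 7 counts in control embryos. In CPM, Myf5 lay below every control embryo in 4 of 5 p53_activated embryos and above every control embryo in 1, replicate 2. Scaled for library size, its level in p53_activated was 0.688 of that in control embryos, with a 95% interval of 0.413 to 1.137 that covers counting error only. In p53_activated replicate 3 a count of 0 for Myod1 and Myf5 allows up to 0.196 CPM. A difference in Myf5 was not detectable at this depth.

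Mrln fell. It measured 0.275, 1.26, 0.916, 1.71 and 1.596 CPM in p53_activated embryos, against 7.05, 2.44, 2.66, 4.34 and 2.91 CPM in control embryos. Every p53_activated embryo lay below every control embryo, as for 3.52% of all tested genes. Control replicate 1 was the highest of all libraries. These values rest on 117 counts over the p53_activated and 327 counts over the control libraries. The log2 fold change was -1.73 ± 0.43 (edgeR adjusted p = 0.0245). The call was lost without control replicate 1 (log2 fold change -1.40, adjusted p = 0.0721), control replicate 4 (0.0543) or p53_activated replicate 3 (0.0622), and without both control replicates 1 and 2 (-1.49, 0.0908).

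On GRCm38 (GENCODE M21) Mrln (ENSMUSG00000019933) lies on chromosome 10 from 70204664 to 70219711, Tnni1 (ENSMUSG00000026418) on chromosome 1 from 135779434 to 135810989 and Myog (ENSMUSG00000026459) on chromosome 1 from 134289989 to 134292548, all on the plus strand. Their exons overlap no other annotated gene. The stretches before a RefSeq transcription start (GRCm38.p6) are printed for these 3 genes because they had the lowest adjusted p among the members. Each window was cut before the first exon base annotated within it. That of Tnni1 lies at a start inside the annotated gene, whose first exon is further upstream. Capitals mark E-boxes, CANNTG, the motif that factors of the MyoD family bind (it reads the same on both strands).
Mrln, chr10:70204414-70204663: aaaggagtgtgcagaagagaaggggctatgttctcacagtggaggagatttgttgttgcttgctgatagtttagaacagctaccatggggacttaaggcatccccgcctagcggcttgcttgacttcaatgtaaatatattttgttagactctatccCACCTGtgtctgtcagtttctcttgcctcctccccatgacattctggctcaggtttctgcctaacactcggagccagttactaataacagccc
Tnni1, chr1:135799171-135799401: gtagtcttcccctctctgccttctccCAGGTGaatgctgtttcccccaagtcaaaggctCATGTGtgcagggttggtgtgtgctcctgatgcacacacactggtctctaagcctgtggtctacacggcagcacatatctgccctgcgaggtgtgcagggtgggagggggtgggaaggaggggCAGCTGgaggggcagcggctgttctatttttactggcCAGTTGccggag
Myog, chr1:134289754-134289988: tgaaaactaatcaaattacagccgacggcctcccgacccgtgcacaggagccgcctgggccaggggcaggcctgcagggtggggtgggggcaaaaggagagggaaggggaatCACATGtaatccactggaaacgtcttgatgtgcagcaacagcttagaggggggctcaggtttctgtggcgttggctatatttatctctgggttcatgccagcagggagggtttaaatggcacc

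In windows from 250 bases before to 50 bases after a start, a CANNTG E-box was found for 7 of the 9 members in the RefSeq table and in 72.3% of all 32851 windows. Here and below a member counts if any of its windows holds the motif, while the percentages are of single windows. Tnnt2, Tnni1 and Myh7 have 2 windows each, so these are unlike units. Tnni1 and Tnnt2 each had a window with 4 or more, as had 6.49% of all windows. The form CAGCTG, which is contained in CANNTG, was found for Tnnt2 and Tnni1 and in 16.3% of all windows. A CArG box, the motif of serum response factor, was found for Actc1 and Myl7 and in 1.63% of all windows. A MEF2 site, searched only as YTAWWWWTAR (Y is C or T, W is A or T, R is A or G), was found for 0 of the 9 members and in 3.19% of all windows. The printed Myog stretch holds ctatatttat and that of Tnni1 ctatttttac, which differ from that pattern only in the last base. The printed Mrln stretch holds ctaataacag, which differs from it in a single other base. The share of all windows with such near matches was not counted. These matches are descriptions of the sequence and do not show that a factor was bound.

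In a list of skeletal muscle differentiation genes, 17 were tested, of which 5 fell, 0 rose and 12 did not pass, with a median log2 fold change of -0.77. Over all tested genes 2.74% fell and 4.49% rose. At an unadjusted p under 0.05, 8 genes of the list were lower and 1 was higher. The higher one was Ryr1 (log2 fold change 0.69 ± 0.23, edgeR adjusted p = 0.0765). With the globin ratio as a covariate 1 gene of the list was called higher. The 5 genes that fell were the member Mrln, the receptor subunit gene Chrng and the myosin genes Myh3, Mylpf and Myl1. Myh3, the embryonic myosin heavy chain, averaged 9.14 ± 3.20 CPM in p53_activated and 22.4 ± 2.69 CPM in control embryos (SD, n = 5 each). Its log2 fold change was -1.28 ± 0.21 (edgeR adjusted p = 0.00106). Mylpf, the fast regulatory light chain, averaged 9.77 ± 2.05 CPM in p53_activated and 20.2 ± 3.53 CPM in control embryos (-1.04 ± 0.17, adjusted p = 0.00147). Both kept their calls under all 23 alternatives. In both every p53_activated embryo lay below every control embryo, as for 3.52% of all tested genes. Falls were also found in the fast essential light chain Myl1 (-1.55 ± 0.41, adjusted p = 0.0307) and in Chrng, the fetal acetylcholine receptor subunit (-0.85 ± 0.24, adjusted p = 0.0432). Chrng lost its call under 13 and Myl1 under 8 of the 23 alternatives. Without control replicates 1 and 2 (1.29% of all tested genes lower) the list held 3 falls, in Myh3, Myl1 and Mylpf, and without replicates 4 and 5 of both groups 4, in Tnnt1, Myh3, Mylpf and Cdh15.

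The regulators that act in or before muscle commitment did not pass. In the list of skeletal myogenic regulators 13 were tested, 0 were called by edgeR, and the median log2 fold change was -0.30. At an unadjusted p under 0.05, 1 was lower and 2 were higher, and with DESeq2 Myog was called lower. Without replicates 4 and 5 of both groups (1.6% of all tested genes lower), Myog and Lbx1 were called lower. With all libraries Lbx1 was at -0.76 ± 0.41 (edgeR adjusted p = 0.285). The muscle progenitor gene Pax7, which neural tube and neural crest also express, was at 8.18 ± 2.01 CPM in p53_activated and 5.38 ± 0.954 CPM in control embryos (log2 fold change 0.61 ± 0.21, edgeR adjusted p = 0.0986). Six4, a homeobox gene of early muscle and sensory precursors, was at 7.72 ± 1.33 CPM in p53_activated and 5.33 ± 1.23 CPM in control embryos (0.54 ± 0.22, adjusted p = 0.148). For Six4 the lowest p53_activated embryo lay above the highest control embryo, as for 4.54% of all tested genes.

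**Figure D2:**
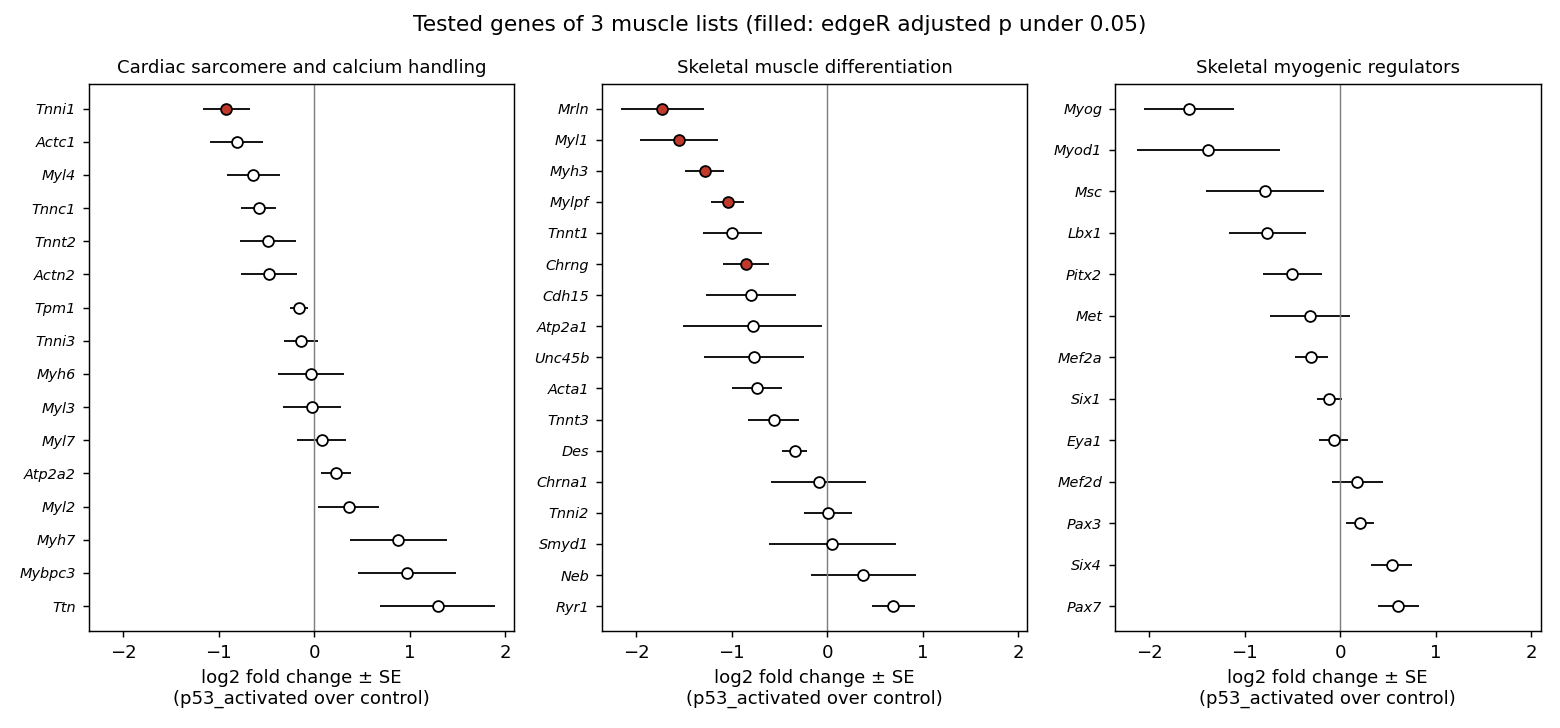
Log2 fold change (p53_activated over control, horizontal axis, ± SE) of each tested gene in 3 muscle lists, with filled points for an edgeR adjusted p under 0.05. The skeletal differentiation list holds 5 filled points, all below 0, the cardiac list 1 (Tnni1) and the regulator list 0.

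Genes of the heart muscle list spread on both sides of 0. Of 25 cardiac sarcomere and calcium handling genes 16 were tested, of which Tnni1 fell, 0 rose and 15 did not pass, with a median log2 fold change of -0.09. Falls made up 2.74% of all tested genes. Tnnc1, the slow and cardiac troponin C, averaged 33.6 ± 9.83 CPM in p53_activated and 50.3 ± 9.13 CPM in control embryos and did not pass (log2 fold change -0.58 ± 0.18, edgeR adjusted p = 0.0712). It was called lower in 5 of 23 alternatives, with adjusted p from 0.0256 with DESeq2 to 0.186 without control replicates 1 and 2. Of the 16, 10 had a log2 fold change below 0. Beside the members and Tnnc1, those of the other sarcomere genes were -0.47 ± 0.29 for Actn2, -0.16 ± 0.09 for Tpm1, -0.14 ± 0.18 for the cardiac troponin I Tnni3, -0.03 ± 0.35 for Myh6, -0.02 ± 0.30 for Myl3, 0.36 ± 0.32 for Myl2, 0.97 ± 0.51 for Mybpc3 and 1.29 ± 0.60 for Ttn, and none of these passed. The difference between the cardiac and the skeletal list was not tested. The natriuretic peptide gene Nppb, a marker of chamber myocardium, was at 0 counts in every library, and Nppa at 14 counts over the p53_activated and 0 over the control libraries. Nppa was too low for a test and shares 61.5% of its exon length with a gene on the opposite strand. Of 12 cardiac transcription factors 8 were tested: Isl1, which also marks sensory neurons, fell (-1.13 ± 0.21, adjusted p = 0.00356), and the other 7 did not pass, Hand2 (0.34 ± 0.20, adjusted p = 0.34) and Mef2c (-0.24 ± 0.23, adjusted p = 0.592) among them.

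The partners of myoregulin were also read. Of 5 tested genes of SERCA pumps and their micropeptides Mrln fell and the other 4 did not pass. Atp2a1, the fast skeletal pump, was at 0.695 ± 0.493 CPM in p53_activated and 1.21 ± 0.915 CPM in control embryos, and Atp2a2, the widely expressed pump, at 62.5 ± 14.8 CPM in p53_activated and 53.5 ± 9.46 CPM in control embryos. Sln, a related micropeptide gene, held 8 counts over the p53_activated and 24 over the control libraries, and Pln, the cardiac relative, 4 counts over the p53_activated and 12 over the control libraries. Both were below the level needed for a test, and Pln shares 64.7% and Atp2a1 21.94% of its exon length with genes on the opposite strand.

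In a smooth muscle list, the muscle type that neural crest does form, 9 genes were tested, of which 2 fell, 1 rose and 6 did not pass. Among all tested genes 2.74% fell and 4.49% rose. Acta2, the smooth muscle actin, was at 14.2 ± 2.05 CPM in p53_activated and 22.1 ± 3.51 CPM in control embryos (log2 fold change -0.64 ± 0.15, edgeR adjusted p = 0.0177). Myl9, a smooth muscle light chain, was at 28.8 ± 5.84 CPM in p53_activated and 55.6 ± 18.9 CPM in control embryos (-0.95 ± 0.21, adjusted p = 0.0156). Cald1, the actin-binding protein caldesmon, rose (0.54 ± 0.11, adjusted p = 0.00583). Without control replicates 1 and 2 Acta2 (-0.48, adjusted p = 0.105) and Myl9 (-0.55, adjusted p = 0.0515) lost their calls. Acta2 lost its call also without control replicate 2 (0.0549) or p53_activated replicate 3 (0.0509), and Cald1 without replicates 4 and 5 of both groups (0.51, adjusted p = 0.074).

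Levels were compared between genes after division by exon length (GENCODE, all exons of a gene joined), as CPM per kilobase. Joined exons can be longer than any single transcript, so the order depends on this length. It was 7752 bases for Tnnt2, 1495 for Myog, 1180 for Mrln and 590 for Myl7. Myl7 was highest in both groups, at 23.7 ± 4.65 in p53_activated and 22.4 ± 10.1 in control embryos, and its range did not reach that of the next gene in either group. Actc1 followed at 5.10 ± 1.94 in p53_activated and 8.98 ± 3.05 in control embryos, then Myl4 at 3.27 ± 1.23 in p53_activated and 5.09 ± 1.61 in control embryos, and Tnni1 at 2.51 ± 0.956 in p53_activated and 4.76 ± 1.35 in control embryos. In p53_activated embryos Tnnt2 came next (1.81 ± 0.567), then Myog (0.988 ± 0.731) and Mrln (0.976 ± 0.492). In control embryos Mrln (3.29 ± 1.63) and Myog (2.997 ± 0.304) stood above Tnnt2 (2.54 ± 1.09) per kilobase. Before division by length they were lower in control embryos, at 3.88 and 4.48 CPM against 19.7 CPM for Tnnt2. Neighbours in these stretches of the order overlapped in range. Myod1, Myf5 and Myh7 were the lowest in both groups, at up to 0.214 CPM per kilobase on average in p53_activated and up to 0.576 in control embryos. In control embryos the ranges of Tnnt2 and Myod1 did not overlap, nor did those of Myf5 and Myh7.

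The cardiac members and Myog differed between embryos of 1 group along with markers of cell types that are not neural crest. Summed over the 6 cardiac members, p53_activated replicates 1 to 5 held 52.4, 49.99, 45.8, 74.9 and 87.2 CPM, and control replicates 1 to 5 held 75.2, 56.6, 73.1, 131 and 109 CPM. Replicates 4 and 5 were the highest in each group, as they were for the endothelial genes given above. Singly, Myl7 and Myh7 did not have these replicates as the highest of each group. Myog did, at 2.30 and 2.84 CPM in p53_activated and 4.91 and 4.95 CPM in control replicates 4 and 5. The skeletal differentiation sum was 172 and 166 CPM in p53_activated replicates 4 and 5, against 101 to 118 CPM in the other p53_activated libraries. In control replicates 4 and 5 that sum was 242 and 213 CPM, within reach of the 179 to 236 CPM of the other control libraries. The sum over 8 epithelial genes was 129 and 110 CPM in p53_activated replicates 4 and 5, against 46.0 to 62.8 CPM in the other p53_activated libraries, and 186 and 190 CPM in control replicates 4 and 5, against 81.2 to 95.9 CPM in the other control libraries. Of 8 erythroid genes the sum was 6054 and 2921 CPM in p53_activated replicates 4 and 5 and 4503 and 4136 CPM in control replicates 4 and 5. It was 505 to 1504 CPM in the other p53_activated and 832 to 2890 CPM in the other control libraries. The somite and sclerotome sum was 52.6 and 40.5 CPM in p53_activated replicates 4 and 5 and 57.4 and 62.3 CPM in control replicates 4 and 5. In the other libraries that sum was 24.7 to 29.5 CPM in p53_activated and 42.2 to 54.4 CPM in control embryos. The part of these cells in the results was not tested.

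**Figure D3:**
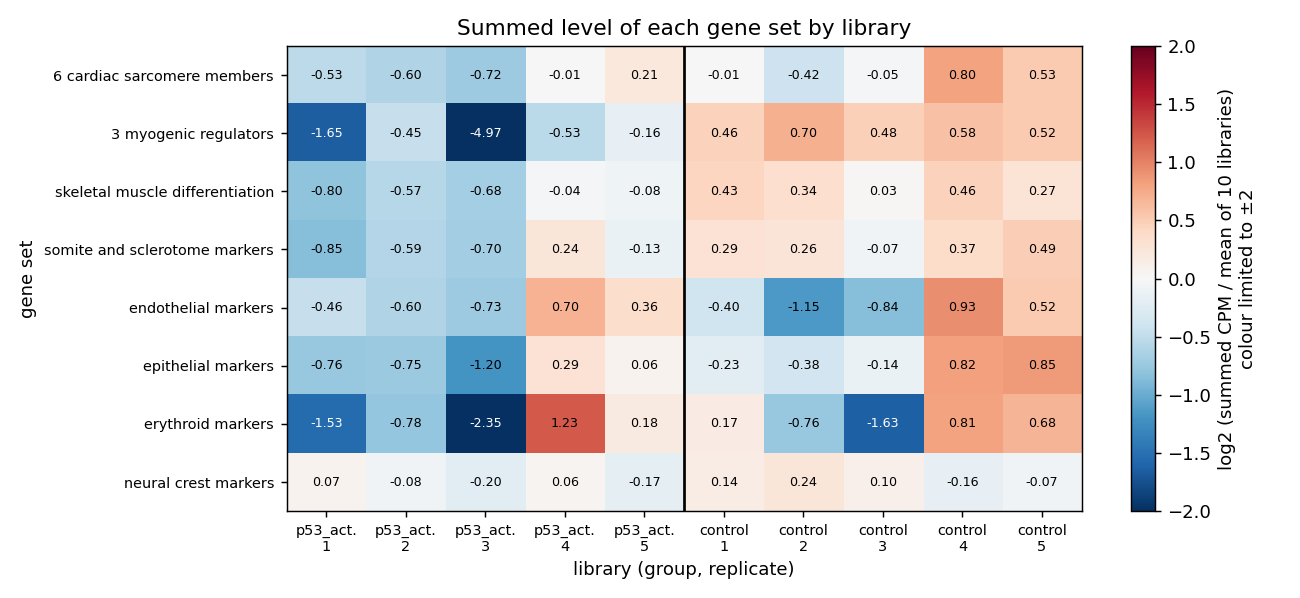
Summed CPM of 8 gene sets (rows) in each library (columns, p53_activated left and control right of the line), as log2 of the ratio to the mean of the 10 libraries; colour is limited to ±2. Replicates 4 and 5 are highest within each group for the cardiac members and for somite and sclerotome, endothelial, epithelial and erythroid markers. The 3 myogenic regulators are above the mean in all 5 control libraries and below it in all 5 p53_activated libraries.

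None of 7 tested endothelial, 7 epithelial and 8 erythroid genes passed edgeR's test in either direction, nor did any of 7 somite and sclerotome genes. At an unadjusted p under 0.05, 0 endothelial, 2 epithelial, 0 erythroid and 3 somite genes were lower and 0 were higher. All 7 tested somite genes and all 7 epithelial genes had a log2 fold change below 0, with medians of -0.65 and -0.80. The somite sum was 24.7 to 52.6 CPM in p53_activated and 42.2 to 62.3 CPM in control libraries. With the endothelial level as a covariate, an alternative chosen after the data were seen, 5 members were called lower among 2.88% of all tested genes: Tnni1 (-0.96, edgeR adjusted p = 0.00352), Actc1 (-0.86, adjusted p = 0.00729), Myl4 (-0.66, adjusted p = 0.0309), Myog (-1.77, adjusted p = 0.0271) and Mrln (-1.79, adjusted p = 0.019). With the same covariate 3 epithelial genes, Epcam, Krt8 and Krt18, were called lower as well. Without replicates 4 and 5 of both groups, also chosen after the data were seen (1.6% of all tested genes lower), Tnni1 (-1.06, adjusted p = 0.0271) and Myog (-2.46, adjusted p = 0.0417) were called lower, and Mrln (-2.28, adjusted p = 0.0665) was not. The somite gene Pax1 was called lower in the same setting, and 1 somite gene was called lower without p53_activated replicate 4.

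The summed level of the 3 regulators was 1.31, 2.99, 0.131, 2.83 and 3.68 CPM in p53_activated replicates 1 to 5 and 5.63, 6.69, 5.73, 6.13 and 5.90 CPM in control replicates 1 to 5. The p53_activated libraries were all below the control libraries, and among them replicates 2, 4 and 5 were higher than replicates 1 and 3. Of the 3 genes Myog did not overlap between the groups on its own, while Myod1 and Myf5 did.

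Likeness of pattern was measured as Pearson's r of log2 CPM over the 10 libraries with group means removed, and is given as a description. It was read among 11202 tested genes with a mean log2 CPM over 1. The 5 genes most like Tnnt2 were Krt18, Cldn3, Hbb-bh0, Nt5dc2 and Lats2, with r of 0.938 to 0.965. Those most like Myog were Mgat3, Neurod4, Actn1, Nrsn1 and Trim62 (r of 0.912 to 0.929), and those most like Mrln were Cep250, Usp35, Tmem151a, Pclo and Limk1 (r of 0.913 to 0.939). No other member was among these genes. Myod1 and Myh7, which lie below that mean, and the untested Myf5 could not appear.

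The authors' deposited table gives a lower level in p53_activated embryos with an adjusted p under 0.05 for 4 members. In the authors' deposited table these were Mrln (log2 fold change -1.12, adjusted p = 0.00189), Tnni1 (-0.77, 0.00583), Myog (-0.99, 0.0082) and Actc1 (-0.66, 0.0365). Lower calls at this threshold made up 4.43% of the 15089 genes with an adjusted p in the authors' deposited table. DESeq2 run on the deposited counts called the same 4 members lower, where lower calls made up 4.91% of the genes with an adjusted p. Its log2 fold changes were further from 0, at -1.73 for Mrln, -0.92 for Tnni1, -1.59 for Myog and -0.81 for Actc1. The authors' fold changes therefore do not compare directly with those above, and the cause of the gap was not tested.

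**Figure D4:**
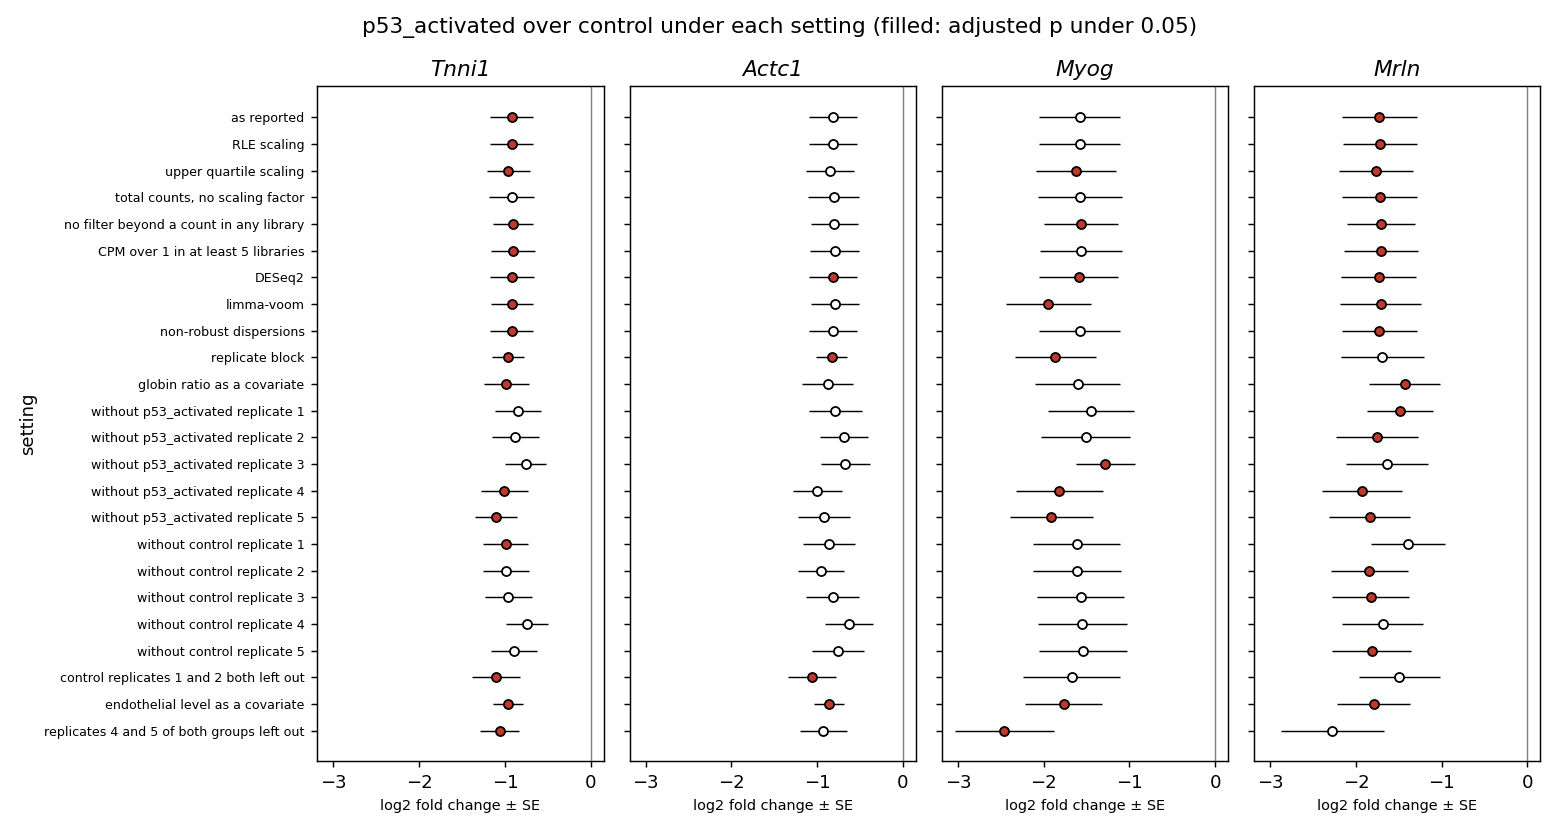
Log2 fold change (p53_activated over control, horizontal axis, ± SE) of Tnni1, Actc1, Myog and Mrln as reported and under each alternative (rows), with filled points for an adjusted p under 0.05. All values lie below 0, and the calls of each gene change between alternatives.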

How the data were processed

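RNA was sequenced from sorted GFP-positive cells of 10 single embryos. One deposited table holds raw counts for each Ensembl gene. The other, the authors' comparison, holds per the file headers a signal (mean normalized count), a log2 fold change with its error, a test score and p-values. GRCm38, DESeq2 1.14.1, HTSeq 0.6.1, HISAT2 2.0.4 and SAMtools 1.3.1 are listed in the submitters' processing notes, with no role. Strand setting and annotation release are not stated in these sources; genes that overlap on opposite strands are uncertain.

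Each column was tied to its embryo through the number in the label. Genes were kept by filterByExpr (minimum count 10, minimum total 15), which left 14528 of 49671, scaled by TMM and tested with edgeR 4.0.16 (quasi-likelihood, robust) in R 4.3.3 over all 10 libraries with no covariate. Adjusted p in the text are from this test over all tested genes unless another is named. The standard error is the log2 fold change over the square root of F. Log2 CPM used a prior count of 2. Alternatives used RLE, upper quartile or total-count scaling, other filters, limma-voom (limma 3.58.1), DESeq2 1.42.0, non-robust dispersions, covariates and left-out libraries. The procedure was tested on simulated data. All library pairs differed by more than sampling noise (chi-square over its degrees of freedom 16.1 to 87.5).

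The members, gene lists and tests were chosen with earlier results of these data known. Named were all members, Trp53 and Cdkn1a, list genes with an adjusted p under 0.05 and the 3 genes of each list with the smallest p; 1 of these is not reported here. Trp53 averaged 29.1 ± 2.99 CPM in p53_activated and 18.2 ± 5.12 CPM in control libraries (SD, n = 5 each).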

Additional observations from a re-analysis of the deposited data

Results flagged for a closer look

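Among 20 groups of 5 values (10 members in 2 groups), 1 library stood far from the others of its group. Myl7 measured 18.9 CPM in p53_activated replicate 5, against 13.1 CPM in the nearest other p53_activated library, a gap of 0.894 of the group's whole range, above the critical value of 0.71. Chance flags about 1 in 20 such groups. Without that library the log2 fold change of Myl7 was -0.05 (edgeR adjusted p = 0.949), against 0.08 with all libraries.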

How the results depend on the processing

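Members called lower numbered 2, against 1 with total-count scaling, 4 with DESeq2, 4 with the replicate block and 5 with the endothelial level as a covariate, and 0 to 3 with each library left out in turn. It was 0 without control replicate 4. Over all tested genes, lower calls numbered 398 (2.74%) as reported and 406 with total-count scaling. They numbered 699 (4.91%) with DESeq2, 266 (1.83%) with the replicate block and 419 (2.88%) with the endothelial level as a covariate. With each library left out in turn they numbered 192 to 433. All called genes numbered 1050, against 1676 with DESeq2, 656 without control replicates 1 and 2, 532 without replicates 4 and 5 of both groups, and 636 to 1025 with each library left out in turn (636 without control replicate 2, 692 without control replicate 4, 652 without p53_activated replicate 5). The cause of these shifts was not tested. The log2 fold change of Myl7 changed sign in 6 of 23 alternatives: -0.0494 with the globin ratio as a covariate, -0.22 without control replicates 1 and 2, and between -0.0495 and 0.30 with each library left out in turn. The other tested members kept their direction in every alternative that gave a value, and Myod1 had none under the filter of CPM over 1. Of the alternatives, Mrln was called in 17, Tnni1 in 15, Myog in 10, Actc1 in 4 and Myl4 in 2 of 23. The labels give no link between same-numbered libraries of the 2 groups beyond the number. Their deviations from the group means correlated at over 0.1 in 1 of 5 pairs, and 2 of 10 libraries correlated best with their own number. With the replicate block, Actc1 (adjusted p = 0.0178), Myl4 (0.0221) and Myog (0.0423) were called and Mrln (0.0659) was not. All called genes then numbered 804, with 1.83% of tested genes lower. The same block called 4 epithelial genes lower (Epcam, Krt8, Krt18 and Cldn7), against 0 as reported, and 2 skeletal differentiation genes (Myh3 and Mylpf), against 5. Over the 23 alternatives the cardiac sarcomere list held 0 to 4 lower calls, against 1 as reported, and the skeletal differentiation list 2 to 6, against 5. Low counts limit what can be said of genes such as Myf5, Myod1, Mrln, Sln and Pln.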

Other observations

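Tmem8c, the gene of the muscle fusion protein myomaker, was chosen after its values were seen. It held 2, 0, 0, 0 and 0 counts in p53_activated replicates 1 to 5 and 7, 5, 9, 16 and 11 counts in control replicates 1 to 5, so that the groups did not overlap. After scaling for library size its level in p53_activated embryos was 0.0373 of that in control embryos, with a 95% interval of 0.00439 to 0.142 that covers counting error only. Tmem8c had too few counts for the reported test, where 3.52% of genes had every p53_activated library below every control library. With no filter beyond a count in any library, over 27213 genes, its edgeR adjusted p was 0.0403.

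Among 9 tested non-muscle relatives of the sarcomere genes, Myh9, a non-muscle myosin heavy chain, rose, at 88.6 ± 31.9 CPM in p53_activated and 45.2 ± 7.54 CPM in control embryos (SD, n = 5 each; log2 fold change 0.97 ± 0.22, edgeR adjusted p = 0.0209). The call was lost under 6 of 23 alternatives, among them without control replicate 1 (0.0547) or 4 (0.0519). Its relative Myh10 (0.42 ± 0.14, adjusted p = 0.0785) and the actin gene Actb (-0.25 ± 0.09, adjusted p = 0.122) did not pass. Among 10 neural crest markers Snai2 fell (-0.94 ± 0.26, adjusted p = 0.0416), a call lost under 11 of 23 alternatives, and the other 9 did not pass.

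In lists with no call, the smallest p belonged to Tcf15 (log2 fold change -0.62 ± 0.24), Meox2 (-0.86 ± 0.34) and Meox1 (-0.76 ± 0.35) among somite genes, Krt18 (-0.64 ± 0.27), Epcam (-1.13 ± 0.51) and Cldn7 (-0.80 ± 0.50) among epithelial genes, and Pecam1 (-0.52 ± 0.43), Kdr (-0.34 ± 0.34) and Tie1 (0.63 ± 0.85) among endothelial genes. Among erythroid genes Hba-a2 was at -0.35 ± 0.73 and Hba-a1 at -0.26 ± 0.71. Neural crest markers next to Snai2 were Ets1 (0.33 ± 0.17) and Foxd3 (-0.39 ± 0.21).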
